A study of Mus musculus with 2 samples.

Results

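The genes described here were Mpo, Elane, Prtn3, Ctsg and Ms4a3, 5 of the 26124 genes counted in single cells of mouse bone marrow (BM) cultures. They were named by symbol, with no cut-off on their values but with earlier results of these data known. They were followed in both libraries, by culture day, in all barcodes that carried a single hashtag. The cells were lineage-depleted (Lin-) BM cells of C57BL/6 mice aged 8 to 10 weeks, grown in GM-CSF at 20 ng/ml, and 300 µM heme-albumin (heme) or albumin (control) was added on day 3. Each of the 2 libraries pooled 5 cultures, of days 0, 3, 4, 5 and 7, marked with antibody-borne DNA hashtags. Depletion had removed cells with CD11b, Gr-1 and other lineage antigens, so that mature neutrophils were taken out before culture. Days 0 and 3 preceded heme addition, and a difference between the libraries on those days is a difference between preparations, not an effect of heme. The days were separate cultures with staggered starts, and how many mice gave the cells is not given in the sources used here. With 1 library per group no test was possible, and the 95% intervals below are exact Poisson intervals for levels and ratios, and exact Clopper-Pearson intervals for shares of cells, which cover counting error only.

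Neutrophils fill their granules in sequence. Proteins of the primary, or azurophilic, granules are made by promyelocytes and their progenitors, and proteins of the secondary granules are made later, when the primary granule genes have been shut off. Mpo encodes myeloperoxidase, which makes hypochlorous acid. Elane, Prtn3 and Ctsg encode the serine proteases neutrophil elastase, proteinase 3 and cathepsin G. Ms4a3 encodes a membrane protein of granulocyte-monocyte progenitors that is not itself a granule protein. Irf8 encodes a transcription factor that drives monocyte and dendritic cell (DC) fate, and Camp encodes the cathelicidin of the secondary granules.

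The genes lie at 4 places in the genome (GENCODE M21 gene models on GRCm38). Mpo (ENSMUSG00000009350) lies at chr11:87793581-87804413 on the + strand, Ctsg (ENSMUSG00000040314) at chr14:56099881-56102574 on the - strand and Ms4a3 (ENSMUSG00000024681) at chr19:11629496-11640851 on the - strand. Prtn3 (ENSMUSG00000057729, chr10:79874476-79883174) and Elane (ENSMUSG00000020125, chr10:79886247-79888215) are neighbours on the + strand, 3072 bases apart. The promoters are shown because all 5 genes were lower at every control step after day 3. They were searched on both strands, over the 250 bases before each RefSeq start (GRCm38.p6), for letters bound by factors of the granulocyte lineage, which were GGAAGT (PU.1), TTNNGNAA (C/EBP), CAACTG (MYB) and TGTGGT (RUNX). Capitals mark the matches, and each stretch is printed 5′ to 3′ on the gene's strand up to the gene model's exon, from chr11:87793534-87793580 for Mpo, chr10:79886062-79886246 for Elane, chr10:79879417-79879613 for Prtn3, chr14:56102575-56102824 for Ctsg and chr19:11640852-11641101 for Ms4a3.
Mpo: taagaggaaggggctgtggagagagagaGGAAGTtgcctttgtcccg
Elane: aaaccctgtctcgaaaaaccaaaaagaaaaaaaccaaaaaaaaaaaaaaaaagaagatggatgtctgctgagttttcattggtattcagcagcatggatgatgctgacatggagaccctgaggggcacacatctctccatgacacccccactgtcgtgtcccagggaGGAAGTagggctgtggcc
Prtn3: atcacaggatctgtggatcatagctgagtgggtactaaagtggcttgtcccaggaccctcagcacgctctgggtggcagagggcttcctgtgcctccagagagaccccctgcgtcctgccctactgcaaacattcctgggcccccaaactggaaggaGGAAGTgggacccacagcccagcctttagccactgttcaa
Ctsg: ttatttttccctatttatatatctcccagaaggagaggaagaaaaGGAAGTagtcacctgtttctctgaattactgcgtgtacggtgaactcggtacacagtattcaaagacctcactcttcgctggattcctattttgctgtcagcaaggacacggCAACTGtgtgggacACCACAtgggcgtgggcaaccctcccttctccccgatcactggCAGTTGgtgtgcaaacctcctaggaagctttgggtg
Ms4a3: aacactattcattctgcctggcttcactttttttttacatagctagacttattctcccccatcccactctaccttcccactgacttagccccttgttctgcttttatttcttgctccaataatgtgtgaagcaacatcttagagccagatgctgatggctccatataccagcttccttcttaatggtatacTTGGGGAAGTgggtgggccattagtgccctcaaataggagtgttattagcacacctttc
GGAAGT was found in 5 of 5 promoters and in 19.7% of all 32851 promoters of the same length. It lay at position -222 from the RefSeq start in Mpo, -83 in Elane, -93 in Prtn3, -205 in Ctsg and -55 in Ms4a3. The Ctsg promoter alone among the 5 also held CAACTG (positions -93 and -36, the latter on the other strand) and TGTGGT (position -79, other strand), which 11.1% and 14.0% of all promoters held. The C/EBP letters were found in Ms4a3 only, overlapping its GGAAGT, and in 36.8% of all promoters. These matches describe letters, and binding was not measured.

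The matrices held 12050 single-hashtag barcodes of the control library and 14164 of the heme library. Of these, 10870 and 10095 had 500 to 5000 detected genes and under 15% mitochondrial counts and were kept, with summed counts of unique molecular identifiers (UMIs) from 14654253 to 36128668 per culture. A level is a gene's UMIs per 1000000 gene UMIs of a culture's kept cells (CPM). The limit of 5000 genes removed 1.92% to 8.34% of a control culture and 16.4% to 33.9% of a heme culture, with the highest share on heme day 3, and levels without it are given where they differed. In all, 112 barcodes occurred in both libraries, 37 of them kept in both, and without these the ratios of the 5 genes, between libraries and between days, kept their direction in all 15 comparisons. On day 0, cells with 5 or more UMIs of erythroid genes (Klf1, Car1, Rhag, Epor, Ermap and Aqp1, a gate chosen after the data were seen, in cells thinned to 3000 UMIs) made up 36.8% of control cells (527 of 1434) and 19.9% of heme cells (263 of 1323). They held a summed 127 CPM of the 5 genes in the control and 96.3 CPM in the heme library, beside 8257 and 5823 CPM in the other cells, and on day 3 there were 1 and 5 of them. Day 0 values therefore depended on these cells, and values without them are given beside the results. All cultures of a library were run in 1 pool, so RNA released by cells of days 0 and 3 can reach barcodes of later days.

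Mpo was highest on day 0 in both libraries. Its level in the control library was 1200, 401, 113, 39.5 and 9.22 CPM on days 0, 3, 4, 5 and 7, respectively, while heme cultures of those days had 2183, 282, 33.3, 35.7 and 38.5 CPM. Each later control culture was lower than the one before, whereas in the heme library days 4, 5 and 7 lay within a narrow range. Ctsg was also highest on day 0, at 700.4, 414, 136, 49.8 and 7.92 CPM in the control and 454, 99.5, 12.7, 15.3 and 13.9 CPM in the heme library. Of the 5 genes, Ctsg had the lowest heme level relative to control on each of these days.

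Elane was at 1512, 2644, 709, 203 and 26.9 CPM over the control days, and at 1428, 1187, 103, 88.2 and 73.3 CPM over the heme days. Prtn3, its neighbour on the chromosome, was at 1666, 2541, 749, 256 and 37.0 CPM in the control and 1522, 1169, 162, 92.4 and 94.9 CPM in the heme library. Both protease genes were highest on day 3 in the control library and on day 0 in the heme library, and without the upper gene limit both were highest on day 3 in both libraries (heme day 3, 1639 CPM for Elane and 1625 CPM for Prtn3). Without the erythroid gate cells both were highest on day 0 in both libraries, where control cells held 3078 CPM of Elane and 3396 CPM of Prtn3. Ms4a3 had the highest ratio of day 3 to day 0 among the 5. It was at 208, 856, 385, 118 and 11.4 CPM in the control and 199, 470.4, 209.7, 90.1 and 67.9 CPM in the heme library, so that its level on day 3 was 4.13-fold (3.99 to 4.27) that of day 0 in control cultures and 2.37-fold (2.28 to 2.47) in heme cultures. Without the upper gene limit these ratios were 4.09 and 3.36, and without the erythroid gate cells they were 2.06 and 1.72.

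**Figure D1:**
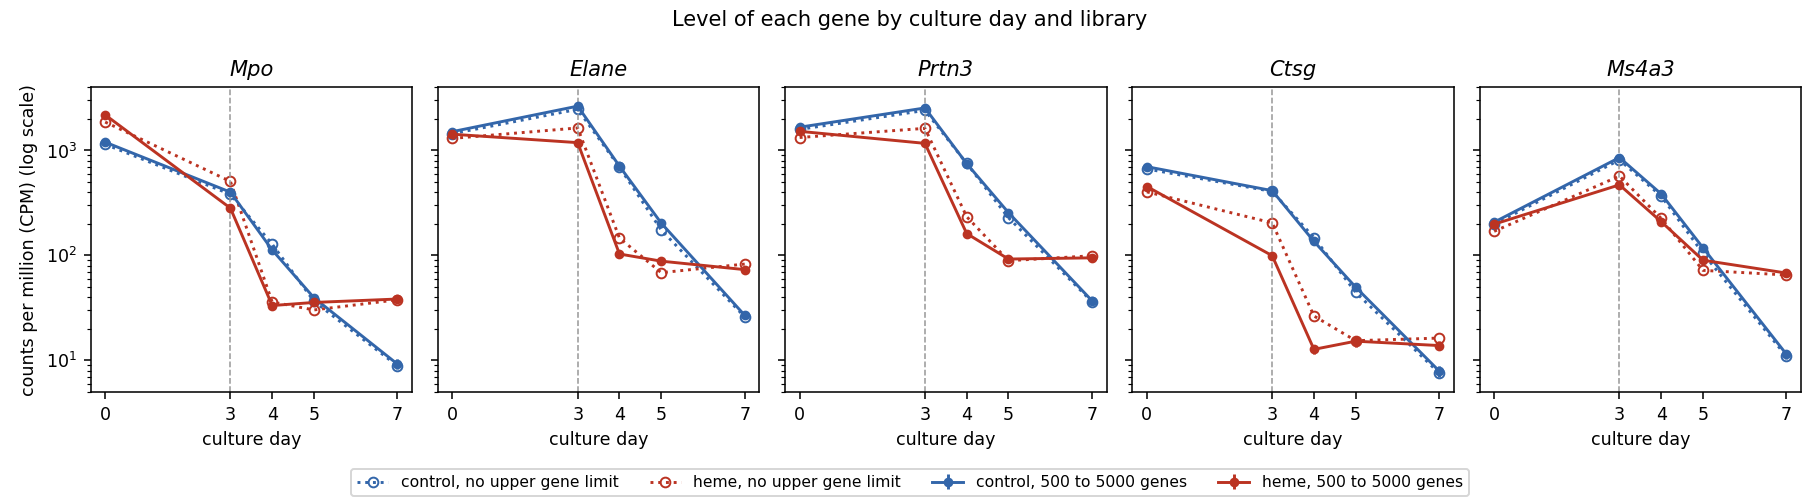
Level of each gene (CPM, log scale) against culture day, with 1 point per culture, for the control library (blue) and the heme library (red). Filled points and solid lines are cells with 500 to 5000 detected genes, with exact 95% Poisson intervals that are mostly smaller than the points, open points and dotted lines have no upper gene limit, and the dashed line marks the day of addition. Control levels are lower at every step after day 3 and end between 7.92 and 37.0, whereas heme levels are nearly level from day 5 to day 7.

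Between days 0 and 3, before any addition, the members parted. In control cultures Mpo on day 3 was 0.334 times its day 0 level (0.326 to 0.341) and Ctsg 0.591 times (0.577 to 0.606), whereas Elane was 1.75 times (1.73 to 1.77) and Prtn3 1.53 times (1.50 to 1.55) its day 0 level. Past 2-fold, 1 member was higher and 1 lower, and 27.9% of the 7525 genes compared (mean of 10 CPM or more) were past 2-fold in either direction. In heme cultures 1 member was higher and 2 lower (27.3% of genes), with ratios of 0.129 for Mpo, 0.219 for Ctsg, 0.831 for Elane (0.818 to 0.845) and 0.768 for Prtn3 (0.755 to 0.781). Without the upper gene limit the heme ratios were 0.272 for Mpo, 0.506 for Ctsg, 1.26 for Elane and 1.22 for Prtn3, so that both protease genes turned to a higher day 3 level. Without the erythroid gate cells the control ratios were 0.164 for Mpo, 0.289 for Ctsg, 0.859 for Elane and 0.748 for Prtn3, so that both protease genes turned to a lower day 3 level. The heme ratios were then 0.0927, 0.157, 0.597 and 0.552 for the same genes. The part of the erythroid cells and of other day 0 cells in these ratios was not tested. The share of Mpo among the UMIs of the 5 genes was 22.7% on day 0 and 5.85% on day 3 in the control and 37.7% and 8.79% in the heme library, while that of Ms4a3 was 3.93% and 12.5% in the control and 3.43% and 14.7% in the heme library.

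From day 3 onward all 5 genes were lower at each control step. At day 4 against day 3 the ratios were 0.281 for Mpo, 0.268 for Elane, 0.295 for Prtn3, 0.328 for Ctsg and 0.450 for Ms4a3, 5 of 5 more than 2-fold lower, beside 0.323% of all genes. At day 5 against day 4 they ranged from 0.287 (Elane) to 0.366 (Ctsg), 5 of 5 beside 0.986% of genes. At day 7 against day 5 they ranged from 0.097 (Ms4a3) to 0.233 (Mpo), 5 of 5 beside 2.44% of genes. Control day 7 levels were thus 0.010 (Elane) to 0.023 (Mpo) times those of day 3, with a median log2 ratio of -6.10, beside -0.06 over all genes and 7.90% of genes more than 2-fold lower (10.1% higher).

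The heme cultures had a steeper step to day 4 and ratios nearer to 1 after it. At day 4 against day 3 the ratios were 0.118 for Mpo, 0.087 for Elane, 0.138 for Prtn3 and 0.128 for Ctsg, each below the control ratio, whereas Ms4a3 had nearly the control ratio (0.446). All 5 were more than 2-fold lower, beside 1.31% of genes. At day 5 against day 4 only Ms4a3 was past 2-fold (0.430; 1.52% of genes were 2-fold lower). Mpo on day 5 was 1.07 times its day 4 level (0.968 to 1.18) and Ctsg 1.20 times (1.02 to 1.40). Without the upper gene limit these 2 ratios were 0.841 and 0.582, and 3 of 5 members were more than 2-fold lower (Elane 0.468, Prtn3 0.381 and Ms4a3 0.320). At day 7 against day 5 no member was past 2-fold, beside 4.11% of genes in either direction, and the intervals of Mpo (0.978 to 1.19), Prtn3 (0.967 to 1.09) and Ctsg (0.778 to 1.06) included 1. Elane was at 0.830 and Ms4a3 at 0.754. Without the upper gene limit Elane was at 1.21 and Ctsg at 1.06, so that both turned to the higher side. Mpo was then at 1.25, Prtn3 at 1.11 and Ms4a3 at 0.904, again with no member past 2-fold. On heme days 4, 5 and 7 Mpo was at 27.8, 29.6 and 28.4 CPM in cells with under 5 UMIs of the 5 genes. All cells then had 33.3, 35.7 and 38.5 CPM of it. Ctsg was at 8.34, 7.88 and 7.38 CPM in such cells, beside 12.7, 15.3 and 13.9 CPM in all cells. The former values come from cells thinned as described below. Much of both genes' level was thus in cells with few of these UMIs, so their ratios near 1 are not read as less loss. Heme day 7 levels were 0.062 (Elane) to 0.144 (Ms4a3) times those of day 3, 5 of 5 more than 2-fold lower beside 6.85% of genes (8.58% higher), and the median log2 ratio was -2.87, beside -0.003 over all genes.

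The order of loss was read as the day on which a straight line between log levels passed 50% of a gene's own highest level. In control cultures that day was 1.90 for Mpo, 3.15 for Ctsg, 3.53 for Elane, 3.57 for Prtn3 and 3.87 for Ms4a3. The order was the same in heme cultures, at 1.02 for Mpo, 1.37 for Ctsg, 3.21 for Elane, 3.22 for Prtn3 and 3.86 for Ms4a3. Elane and Prtn3 were next to each other with little between them, and no replicate library sets the error of these days. Control levels passed 10% of the highest in the same order, from day 3.95 (Mpo) to day 5.28 (Ms4a3). In heme cultures Mpo passed 10% at day 3.12, Ctsg at 3.38, Elane at 3.87 and Prtn3 at 4.11, while Ms4a3 did not reach 10% by day 7. Without the upper gene limit the heme days for 50% were 1.60 for Mpo, 3.01 for Ctsg, 3.29 for Elane, 3.36 for Prtn3 and 3.75 for Ms4a3, and the order was again the same. Without the erythroid gate cells Prtn3 came before Elane, at 3.33 and 3.41 in the control and 3.05 and 3.07 in the heme library, and the places of Mpo, Ctsg and Ms4a3 were kept. The days themselves moved, to 1.15 for Mpo and 1.68 for Ctsg in the control and 0.874 and 1.12 in the heme library. No culture was harvested between days 0 and 3. At 10% Elane was again before Prtn3 without these cells, at 4.67 and 4.74 in the control and 3.73 and 3.86 in the heme library.

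The libraries already differed before heme was added. On day 0 Mpo was 1.82-fold higher in the heme library (1.79 to 1.85), Ctsg was at 0.648 times the control level (0.629 to 0.667), and Elane (0.945), Prtn3 (0.913) and Ms4a3 (0.957, interval 0.911 to 1.01) were within 10% of it. No member was past 2-fold, and 16.2% of all genes were, in either direction. These day 0 ratios depended on the cells and on the scaling. When cells with over 30% ribosomal counts were also left out, Mpo was at 1.41 and Elane at 1.07 on the log2 scale, both past 2-fold higher, and Prtn3 and Ms4a3 turned to the higher side. Ctsg was at -1.06 on the log2 scale when library totals were scaled by TMM factors (edgeR) and at -1.08 with median-of-ratios factors, past 2-fold lower. Without the erythroid gate cells the heme to control ratios were 1.25 for Mpo, 0.647 for Elane, 0.624 for Prtn3, 0.443 for Ctsg and 0.659 for Ms4a3. On day 3 the heme to control ratios were 0.704 for Mpo, 0.449 for Elane, 0.460 for Prtn3, 0.240 for Ctsg and 0.549 for Ms4a3, so that 3 of 5 were more than 2-fold lower, beside 0.148% of genes. These day 3 ratios depended on the cells removed as having over 5000 genes. Heme day 3 cells above the limit held more of the 5 genes (Mpo 682 CPM and Ctsg 286 CPM in 1175 cells) than those with 3500 to 5000 genes (346 and 122 CPM in 1272 cells), and control cells above it held less (292 and 372 CPM in 181 cells, against 523 and 555 CPM in 869 cells). With those cells kept, Mpo on day 3 was at 382 CPM in the control and 507 CPM in the heme library, and Ctsg at 407 and 204 CPM, which turned the ratio of Mpo to 1.33 and left 0 of 5 members past 2-fold (Ctsg at 0.502). These ranges of detected genes were chosen after the data were seen.

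After addition, the heme to control ratio was below 1 on days 4 and 5 and above 1 on day 7 for all 5 genes. On day 4 it was 0.296 for Mpo (0.274 to 0.318), 0.146 for Elane (0.140 to 0.152), 0.216 for Prtn3 (0.209 to 0.223), 0.094 for Ctsg (0.084 to 0.105) and 0.544 for Ms4a3 (0.527 to 0.562). Thus 4 of 5 were more than 2-fold lower, beside 2.08% of genes, and Ctsg was 10.7-fold lower. Without the upper gene limit Ctsg was at 0.179 and the same count of 4 was more than 2-fold lower. Part of this gap was present on day 3, and the day 4 to day 3 ratios above give the change within each library. On day 5 the ratio was 0.903 for Mpo, 0.434 for Elane, 0.361 for Prtn3, 0.306 for Ctsg and 0.761 for Ms4a3, with 3 of 5 more than 2-fold lower, beside 2.07% of genes.

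On day 7 the ratio was 4.17 for Mpo (3.68 to 4.73), 2.73 for Elane (2.52 to 2.95), 2.56 for Prtn3 (2.40 to 2.74), 1.75 for Ctsg (1.50 to 2.05) and 5.94 for Ms4a3 (5.34 to 6.63). Of the 5, 4 were more than 2-fold higher, beside 12.1% of genes that were higher and 4.55% that were lower. Without the upper gene limit Ctsg was at 2.16 and 5 of 5 were more than 2-fold higher. Camp was 8.17-fold higher and Irf8 was 2.92-fold lower in the same comparison. Without the upper gene limit Camp was at 81.3 CPM in the control and 423 CPM in the heme library, in place of 88.0 and 719. The median log2 ratio of the 5 genes was -0.08, -1.12, -2.21, -1.20 and 1.45 on days 0, 3, 4, 5 and 7. The median over all genes was 0.38, 0.25, 0.23, 0.21 and 0.29, and relative to it the 5 genes were at -0.47, -1.37, -2.45, -1.41 and 1.16.

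**Figure D2:**
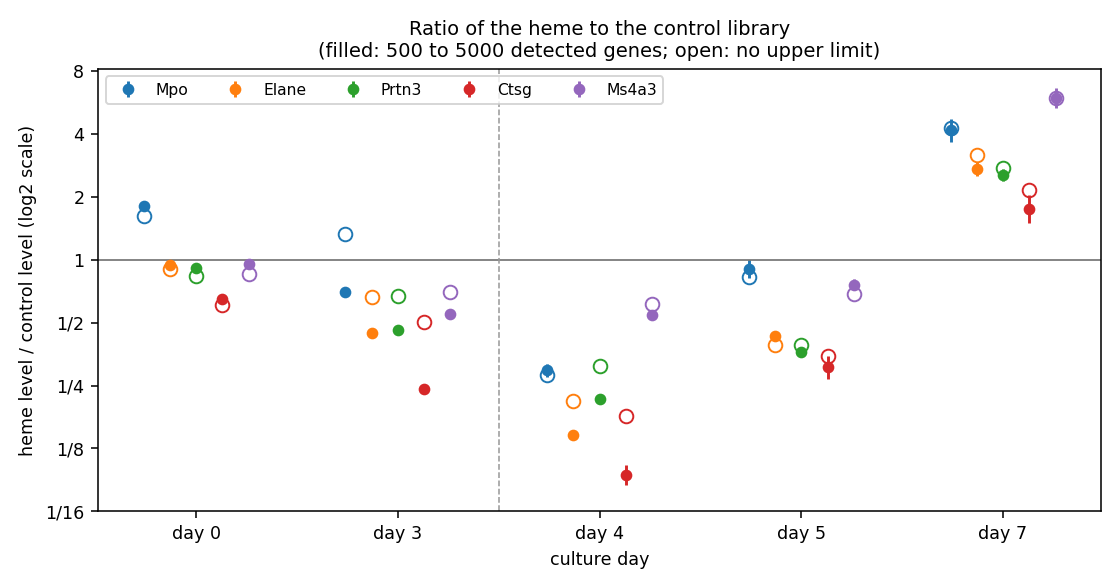
Heme level divided by control level (log2 scale) of each of the 5 genes by culture day, with exact 95% intervals that cover counting error only (filled points, 500 to 5000 detected genes; open points, no upper limit). Days 0 and 3, left of the dashed line, precede heme addition, the filled points of all 5 genes are below 1 on days 3 to 5, with Ctsg at 0.094 on day 4, the open point of Mpo on day 3 is at 1.33, and on day 7 all are above 1 with Ms4a3 at 5.94.

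A level can differ because fewer cells carry a transcript or because each carries less of it. To separate these, cells were thinned to 3000 UMIs each, and shallower cells (22 to 291 per culture) were left out. Cells with 5 or more UMIs of the 5 genes together, called positive here, made up 34.7%, 36.8%, 12.6%, 4.21% and 0.224% of control cells over the days, the last being 6 of 2681 cells. In the heme library they made up 37.3%, 26.9%, 5.38%, 2.37% and 2.68%. Outside the erythroid gate, day 0 cells were positive in 54.4% of cases in the control (493 of 907) and 46.5% in the heme library (493 of 1060). Unthinned, 35.8%, 58.5%, 25.7%, 8.69% and 1.79% of control cells and 42.5%, 54.9%, 23.6%, 8.74% and 10.5% of heme cells were positive.

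For Elane, the share of thinned control cells with at least 1 UMI was 26.1%, 40.9%, 17.8%, 10.5% and 7.16% over the days, the erythroid gate cells of day 0 included. The cells with Elane held a mean of 16.2, 15.8, 7.94, 3.85 and 1.18 UMIs of it. In the heme library 33.6%, 35.5%, 16.3%, 14.0% and 13.8% of cells had Elane, at means of 9.80, 8.62, 1.49, 1.77 and 1.62 UMIs. Cells with 5 or more UMIs of DC genes (Ccr7, Fscn1, Ccl22, Il4i1 and Cacnb3), which should lack Elane, gave the background. Elane was in 1.82% of 55 such control cells and 5.08% of 59 such heme cells on day 4, in 5.91% and 12.0% on day 5, and in 6.78% and 5.13% on day 7. Median depths of DC gate cells and of all cells were 11394 and 12303 UMIs on control day 7, before thinning. DC gate cells were deeper on day 4, at 14936 and 11816 UMIs in the control and 18707 and 10032 in the heme library. The same held on day 5, at 15534 and 9946 UMIs in the control and 16616 and 8671 in the heme library. The background of those days may thus differ from that of cells of usual depth, which was not tested. The control share of day 7 was thus at the background and is not read as expression, and no order between the libraries is read from shares at 1 UMI. On day 4, cells with Elane held a mean of 7.94 UMIs in the control and 1.49 in the heme library, cells with Prtn3 6.04 and 1.76, cells with Mpo 3.27 and 1.10, cells with Ctsg 3.34 and 1.10, and cells with Ms4a3 2.64 and 1.82. These means include cells with 1 background UMI, which lower them. They are therefore not read as the content of the cells that express the gene. Positive cells, which need 5 UMIs, made up 12.6% and 5.38% of cells on that day.

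The control UMIs of day 4 and day 5 sat in few cells. On control day 4 the top 5% of cells held 66.4% of the UMIs of the 5 genes and on day 5 78.6%, and 52 and 13 cells had 50 or more such UMIs. On heme days 4 and 5 the top 5% held 39.8% and 52.4%, and 0 of 2323 cells (which allows up to 0.129%) and 1 cell had 50 or more. Of the UMIs of the 5 genes, 87.3% on control day 4 and 41.2% on heme day 4 were in positive cells. On day 7, 15.7% of control and 44.4% of heme UMIs were in such cells.

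Other cell types gave the level that free RNA may reach. On day 7, control cells of the DC gate held a summed 75.8 CPM of the 5 genes (664 cells, 0 of them positive, which allows a share of up to 0.452%), beside 97.4 CPM in all cells. The same for macrophage genes (C1qa, C1qb, C1qc, Mrc1, Marco and Adgre1) gave 65.0 CPM in 236 control cells and 109 CPM in 429 heme cells, beside 280.5 CPM in all heme cells. The DC gate of heme day 7 had only 39 cells, at 137 CPM. Of these, 2.56% were positive (0.065% to 13.5%), beside 2.68% of all heme cells. Control day 7 levels were therefore close to those of cells that should not make these transcripts. Summed heme day 7 levels were above those of both gates, while the positive share of the heme DC gate was not below that of all cells within its interval.

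Of the heme day 7 level, Mpo lay mostly outside positive cells. In cells with under 5 UMIs of the 5 genes Mpo was at 27.8, 29.6 and 28.4 CPM on heme days 4, 5 and 7, where all cells had 33.3, 35.7 and 38.5 CPM before thinning, and at 8.74, 7.32 and 7.35 CPM on the same control days. Heme macrophage gate cells on day 7 held 21.0 CPM of Mpo. The heme library also had the higher Mpo on day 0. The part of free RNA in these levels was not tested.

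**Figure D3:**
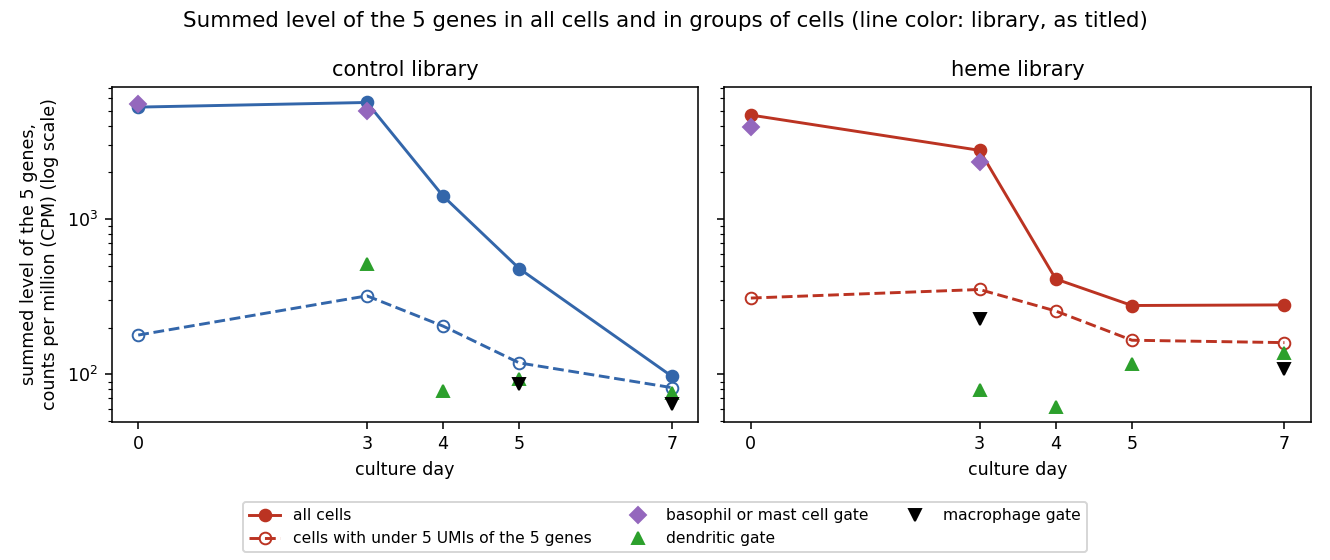
Summed level of the 5 genes (CPM, cells thinned to 3000 UMIs) by culture day in all cells (solid line), in cells with under 5 UMIs of the 5 genes (dashed line) and in cells selected by 5 or more UMIs of basophil or mast cell, DC or macrophage marker genes, for the control and the heme library. Only groups of 20 or more cells are drawn. DC and macrophage groups stay low on most days, basophil or mast cell groups are close to all cells, and on control day 7 all cells (97.4) come close to DC marker cells (75.8).

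Signal of the 5 genes was also found in cells that carried basophil or mast cell genes, whose lineage was not tested further. Cells with 5 or more UMIs of basophil or mast cell genes (Mcpt8, Prss34, Cpa3, Ms4a2, Fcer1a and Gata2) held a summed 5550 CPM of the 5 genes in 80 control cells of day 0, with Ctsg at 2575 CPM and Mpo at 1533 CPM, and 85.0% of them were positive. In the heme library 137 such cells held 3949 CPM, with Mpo at 2139 and Ctsg at 810 CPM. On day 3 there were 20 control and 22 heme cells of this kind, with Ctsg at 2850 and 1076 CPM. Without these cells the order of loss was the same in both libraries, the heme to control log2 ratio of Elane on day 0 was 0.01 in place of -0.08, and the other directions were kept.

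Positive cells were then compared with the rest for Irf8, counted from 1 UMI in thinned cells. On day 0, Irf8 was detected in 41.2% of positive control cells (205 of 497, interval 36.9% to 45.7%) and in 14.4% of the others, and in 46.9% of positive heme cells (231 of 493) and 27.2% of the others. The others included most erythroid gate cells, of which 8 of 527 (1.52%) in the control and 5 of 263 (1.90%) in the heme library had Irf8. Without erythroid gate cells Irf8 was in 41.4% of positive (interval 37.0% to 45.9%) and 30.9% of other control cells (26.5% to 35.6%), and in 46.9% of positive (42.4% to 51.4%) and 39.0% of other heme cells (34.9% to 43.1%), where the intervals overlap. On day 3 the relation was the other way round, with 5.91% of positive control cells (41 of 694, interval 4.27% to 7.93%) and 10.5% of the others, and 3.99% of positive heme cells (23 of 577) and 8.72% of the others. By member, outside the erythroid gate of day 0, Irf8 was in 43.6% of control cells with Prtn3 and 22.7% of those without it, and in 29.9% of control cells with Ms4a3 and 39.6% of those without it. Heme cells gave 49.0% and 32.2% for Prtn3, and 33.4% and 46.1% for Ms4a3. The other members lay between these. Elane gave 45.0% and 31.3% in the control and 48.0% and 39.1% in the heme library. Ctsg gave 41.4% and 31.1% in the control, and 43.5% and 42.0% in the heme library. Mpo differed little, at 37.3% and 35.7% in the control and 44.6% and 39.9% in the heme library. With the erythroid gate cells, Ms4a3 in the control turned to 27.8% of cells with it and 22.6% of those without. On heme day 4, 1 of 125 positive cells had Irf8 (0.80%), and 5.78% of the others did. On day 7, when Irf8 was at 169 CPM in the control and 58.0 CPM in the heme library, only 6 positive control cells were left, 2 of them with Irf8, and 13.7% of the 51 positive heme cells and 13.3% of the others had it.

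Camp, counted from 5 UMIs in thinned cells, was nearly absent from positive cells on day 0 (0.201% of control and 0.609% of heme cells). On day 3 it was detected in 35.9% of positive control cells (249 of 694, interval 32.3% to 39.6%) and 38.8% of the others (36.1% to 41.7%), and in 42.8% of positive heme cells (247 of 577) and 49.6% of the others. On day 4 it was in 41.9% of positive control cells and 53.7% of the others, and in 49.6% and 64.5% in the heme library. On day 5 the order was turned, with 40.9% of the 88 positive control cells and 23.4% of the others. On heme day 7 it was in 25.5% of the 51 positive cells and 8.15% of the others, where Camp was at 719 CPM. Positive cells with both Irf8 and Camp were rare, at 0 of 497 on control day 0 (which allows up to 0.604%) and 2 of 694 on control day 3, and at 0 of 493 (up to 0.609%) and 1 of 577 in the heme library.

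**Figure D4:**
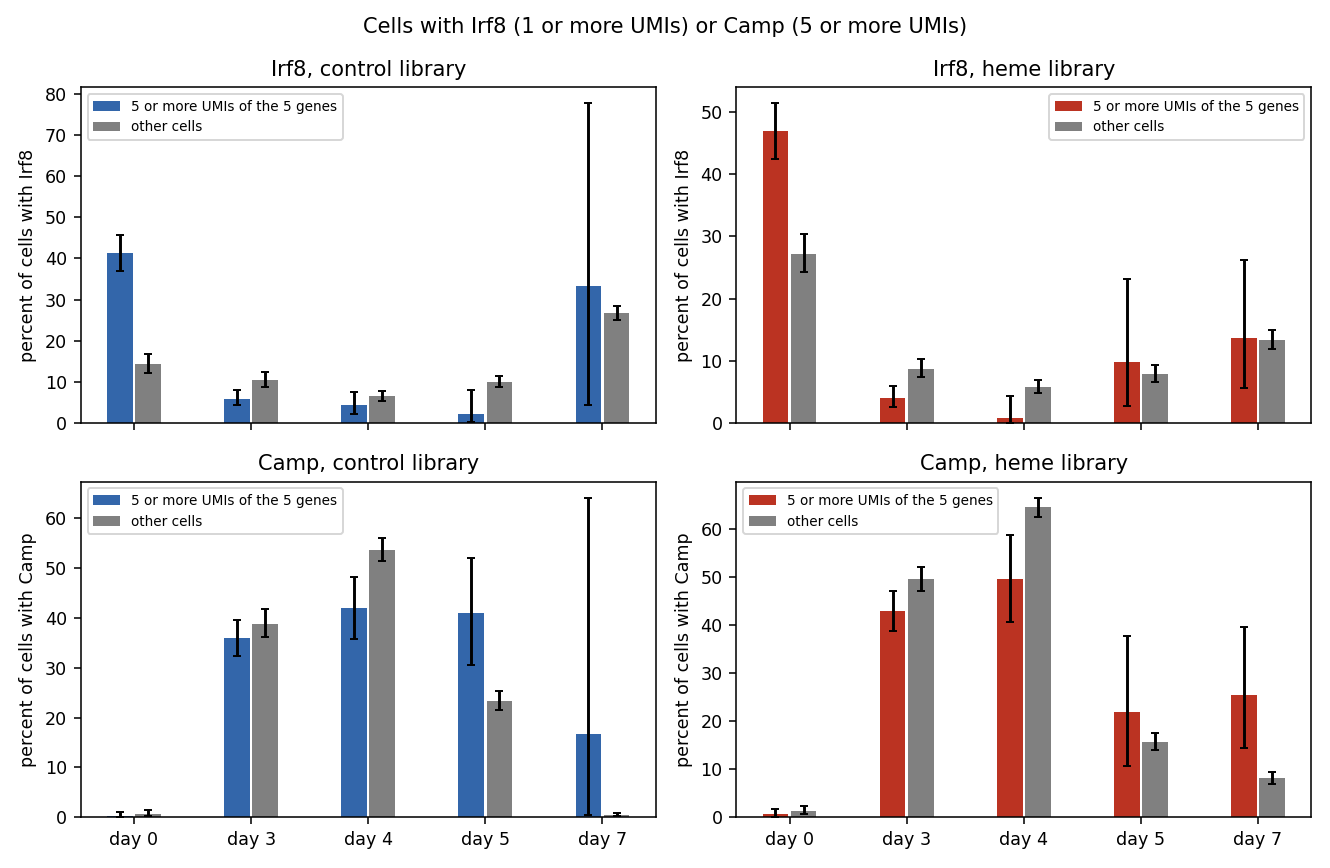
Percent of thinned cells with Irf8 (1 or more UMIs) or Camp (5 or more UMIs) among cells with 5 or more UMIs of the 5 genes and among all other cells, by culture day and library, with exact 95% intervals and a scale of its own for each panel. On day 0 Irf8 is more frequent in the positive cells (41.2% against 14.4% in the control, 30.9% of the others without erythroid gate cells), on day 3 less frequent (5.91% against 10.5%), and Camp is near 0 on day 0 and in 35.9% and 42.8% of positive cells on day 3.

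The members did not share Camp alike. On control day 3, Camp was in 17.7% of cells with Ctsg, 21.5% with Mpo, 34.6% with Elane, 39.4% with Prtn3 and 42.4% with Ms4a3. The intervals of Ctsg (14.2% to 21.7%) and Mpo (17.5% to 25.8%) overlap. Cells without the gene had Camp in 43.6%, 42.1%, 39.9%, 36.1% and 31.9%, with overlapping intervals for Elane and Prtn3. On heme day 3, Camp was in 25.2%, 33.5%, 44.3%, 48.2% and 52.5% of cells with the genes in the same sequence. Cells without the gene had it in 50.8%, 51.4%, 49.7%, 47.5% and 43.5%, again with overlapping intervals for Elane and Prtn3. Cells with a gene can include cells that hold only background UMIs of it. In the same sequence, cells that were not positive on day 3 held 9.51, 8.11, 43.3, 102 and 158 CPM in the control. In the heme library they held 11.2, 23.7, 60.2, 110 and 147 CPM. This is nearly the order of the Camp shares, so no order of the members is read from those. The part of background in them was not tested. Cells with Ctsg or Mpo had Camp less often than cells without that gene in both libraries. On heme day 4 Camp was in 55.2% of cells with Ctsg (42.6% to 67.4%), 59.4% with Elane (54.2% to 64.4%) and 62.2% with Mpo (55.1% to 69.1%). Cells without these genes had it in 63.9%, 64.5% and 63.8%, and these intervals overlap, so no order is read on that day either. Most cells with an early gene still held the later ones. On control day 3, 91.2% of cells with Mpo had Elane (40.9% of all cells did) and 93.7% had Ms4a3 (55.9% of all), whereas 35.2% of cells with Ms4a3 had Mpo (21.0% of all). A gene detected in fewer cells gives such unequal shares by itself, so the shares of all cells are given beside them.

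Cells of day 3 were also grouped by their Camp UMIs, in ranges chosen after the data were seen (0, 1 to 4, 5 to 19, 20 to 99, and 100 or more). Elane in the control library was at 2357, 4101, 2804, 820 and 353 CPM over these groups, and in the heme library at 1082, 2094, 1510, 399 and 54.1 CPM. Elane was thus highest in cells with 1 to 4 Camp UMIs and lower in cells with 20 or more. Background UMIs can give such low Camp counts. On heme day 3, 22.7% of 22 macrophage gate cells and 4.76% of 21 DC gate cells had 1 or more Camp UMIs. On control day 3, 36.4% of 22 DC gate cells did. The group with 1 to 4 UMIs is therefore not read as cells that express a little Camp. Ctsg in the control library was at 508, 528, 183, 40.6 and 23.5 CPM, and in the heme library at 138, 137, 57.3 and 21.6 CPM and 0 UMIs in the 74 cells of the last group (which allows up to 13.5 CPM). Ms4a3 kept the largest part of its level, at 689, 1174, 1011, 553 and 333 CPM in the control. In cells with 20 to 99 Camp UMIs Ctsg was at 7.69%, Mpo at 11.3%, Elane at 20.0%, Prtn3 at 24.5% and Ms4a3 at 47.1% of its highest group in the control, and at 15.6%, 13.6%, 19.1%, 25.9% and 46.2% in the heme library. Camp makes up part of the 3000 UMIs of such cells, which lowers every other gene's level by its share.

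**Figure D5:**
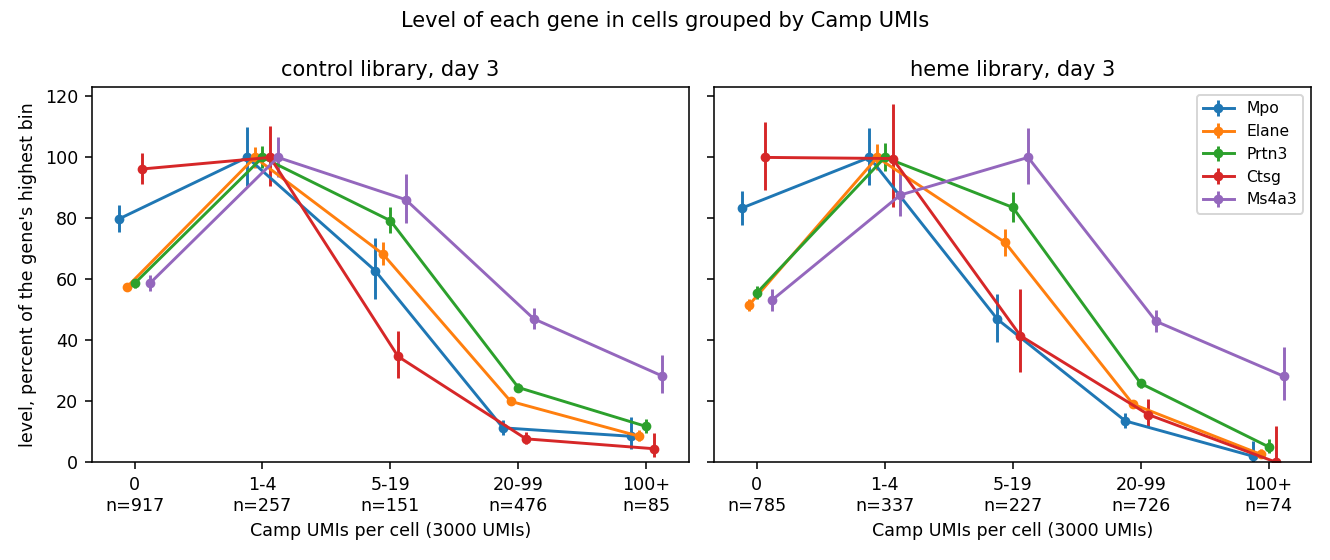
Level of each of the 5 genes on day 3, as percent of its own highest Camp group, in cells grouped by their Camp UMIs (cells thinned to 3000 UMIs, number of cells under each group), for the control and the heme library, with exact 95% Poisson intervals. At 20 to 99 Camp UMIs the control values run from 7.69% for Ctsg to 47.1% for Ms4a3.

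Other genes of the pathway were counted in fixed lists. Of 10 other primary granule genes and partners, 4 were more than 2-fold lower and 0 higher at control day 7 against day 3 (median log2 ratio -0.27), beside 7.90% of all genes lower and 10.1% higher (median -0.06). The 4 were Prss57, a serine protease of the same granules (72.1 to 1.30 CPM), Nkg7, a granule membrane protein (143 to 2.44 CPM), Serpinb1a, an inhibitor of neutrophil elastase (620 to 17.1 CPM), and Cst7, the inhibitor cystatin F (77.9 to 6.84 CPM). Genes that macrophages also use did not share this pattern, such as Lyz2 (lysozyme, 3135 and 5684 CPM on control days 3 and 7) and Ctsc (the protease that activates the granule serine proteases, 335 and 412 CPM). In heme cultures 5 of the 10 were lower and 2 higher at day 7 against day 3 (6.85% of all genes were lower and 8.58% higher). On day 7, 8 of the 10 were high enough to compare between the libraries, and 2 were more than 2-fold higher and 1 lower in heme cultures (12.1% and 4.55% of all genes), with Serpinb1a 5.91-fold higher. Serglycin (Srgn), which holds proteases in granules, was at 567 CPM on control and 140 CPM on heme day 7.

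Of the progenitor and granulocyte regulators, 11 of 12 were high enough to compare at control day 7 against day 3, and 5 were more than 2-fold lower and 2 higher (7.90% and 10.1% of all genes). Myb, a progenitor factor, was at 277, 40.8, 22.2, 9.57 and 3.51 CPM over the control days, so that it was already low on day 3, when Elane and Prtn3 were at 2644 and 2541 CPM. Cebpe, which drives secondary granule genes, was at 18.9, 348, 299, 114 and 29.6 CPM. Csf3r, the G-CSF receptor, was at 4.95 CPM on control and 47.1 CPM on heme day 7, 9.51-fold higher. Of 10 secondary and tertiary granule genes, 8 were more than 2-fold lower and 1 higher at control day 7 against day 3 (median log2 ratio -4.88, beside 7.90% of all genes lower and 10.1% higher). In the heme library the counts were again 8 and 1 (median -2.29, beside 6.85% and 8.58%). The gene that was higher was Mmp8, neutrophil collagenase, 2.23-fold in the control and 6.45-fold in the heme library. On day 7, 7 of the 10 were more than 2-fold higher and 0 lower in heme than in control cultures (median 2.61, beside 0.29 over all genes, 12.1% of which were higher), led by Ngp (20.3-fold) and Ltf (14.6-fold). Ngp was at 178 CPM on control and 3599 CPM on heme day 7, and at 163 and 2053 CPM without the upper gene limit. Ltf was at 59.8 and 870 CPM, and at 56.2 and 496 CPM without that limit. Camp itself was highest on day 4 in both libraries, at 132, 5174, 7034, 2212 and 88.0 CPM in the control and 233, 6586, 7345, 899.5 and 719 CPM in the heme library. Without the upper gene limit Camp was at 127, 4363, 5814, 1686 and 81.3 CPM in the control. In the heme library it was then at 161, 3333, 4618, 421 and 423 CPM. On days 3 and 4 the heme level of Camp was thus below the control level without the limit, and above it with the limit.

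Over the 10 cultures, on log2(CPM + 1), Elane and Prtn3 were the most alike pair of members (r = 0.997), Mpo and Ctsg had r = 0.937, and Mpo and Ms4a3 were the least alike (r = 0.648). The cultures share 2 libraries and 1 course of days, so these are descriptions. Among 7810 genes that reached 20 CPM, those most like the mean of the 5 genes were Ppig (r = 0.979), Zfp830 (0.976), Nkg7 (0.974), Tssc4, Stk16, Upf3a, Fam204a, Spdl1, Rrm2 (0.954) and Fbxo5 (0.951). Correlation takes no account of size. Ppig was at 168 CPM on control day 0 and 106 on control day 7, whereas Nkg7 was at 182 and 2.44 CPM.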

How the data were processed

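Single-cell RNA-seq (10x Genomics 3′ v3.1 with feature barcodes) of 2 multiplexed libraries was used. The authors deposited unnormalized UMI counts for each gene and barcode, made with Cell Ranger on GRCm38.p6. The submitters' processing notes give Cell Ranger 4.0.0, R 4.4, Seurat 3.2.3 and Scanpy 1.6.0, and the matrix header gives Cell Ranger 5.0.0. The deposited hashtag calls set each barcode's culture day and whether it is a single cell, so doublets between hashtags were left out, and doublets within a hashtag were not sought.

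Kept cells had 500 to 5000 detected genes and under 15% mitochondrial counts. The study's methods word its limits the other way round, and they were read as upper limits. No limit was set on ribosomal counts, since the study's 30% alone would remove 73.3% of control and 20.8% of heme day 0 cells. Day 5 is a harvest day of the labels, and the design text gives other exposure hours, so culture days are used.

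UMIs were summed per library and day. Shares of cells used thinning to 3000 UMIs (fixed seed). Genes compared had a mean of 10 CPM or more, and called means past 2-fold. No p-value was computed. 1 gene of the marker lists is not reported here. The calculation was tested on simulated data. Genes named are the members, Irf8, Camp, 3 fixed lists and the 10 genes most like the members. The members and lists were chosen with earlier results of these data known. Alternatives were every single-hashtag barcode, other gene, ribosomal and UMI limits, edgeR 4.0.16 TMM factors, median-of-ratios factors, other thinning depths and leaving out each member. Python 3.11.15, numpy 2.4.6, scipy 1.17.1, pandas 2.3.3 and matplotlib 3.10.9 were used.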

Additional observations from a re-analysis of the deposited data

Results flagged for a closer look

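With 1 library per group none of the differences below was tested, and the intervals in the text cover counting error only. For all 5 genes the heme to control ratio lay on opposite sides of 1 on days 4 and 7. It was 0.296 and 4.17 for Mpo, 0.146 and 2.73 for Elane, 0.216 and 2.56 for Prtn3, 0.0937 and 1.75 for Ctsg, and 0.544 and 5.94 for Ms4a3. The day 3 to day 0 ratio lay on opposite sides of 1 in the libraries for Elane (control 1.75, heme 0.831) and Prtn3 (control 1.53, heme 0.768), both before heme was added. The heme ratios were 1.26 and 1.22 without the upper gene limit, and the control ratios were 0.859 and 0.748 without cells of the erythroid gate, so that neither alternative kept the opposite sides. The day 5 to day 4 ratio did so for Ctsg (control 0.366, heme 1.20, and 0.582 in the heme library without the upper gene limit).

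Barcodes without a hashtag call, which no comparison uses, held more of 4 genes in the heme library (1218 barcodes) than in the control library (652 barcodes). Mpo was at 225 CPM and 80.8 CPM, Elane at 388 and 149, Prtn3 at 389 and 142, and Ms4a3 at 151 and 40.2. Ctsg was at 58.1 and 52.4 CPM, with overlapping intervals.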

How the results depend on the processing

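No paired analysis was possible because each group has 1 library. The cause of the differences below was not tested. The median log2 heme to control ratio of the 5 genes on day 0 was -0.08, and 0.60 with the ribosomal limit (Elane 1.07, Prtn3 0.60, Ms4a3 0.050). Without the basophil or mast cell gate, an alternative chosen after the data were seen, it was -0.039, with Elane at 0.01 (0.0089). Without the erythroid gate, also chosen then, it was -0.63, and Irf8 was in 30.9% (control) and 39.0% (heme) of other day 0 cells. Mpo on day 3 was 0.37 with every single-hashtag barcode and 0.41 without the upper gene limit. For days 0, 3, 4, 5 and 7 the medians were -0.22, -0.58, -1.87, -1.32 and 1.65 with every barcode, -0.23, -0.57, -1.83, -1.35 and 1.67 without the upper limit, -0.52, -1.45, -2.50, -1.49 and 1.18 with TMM factors, and -0.54, -1.39, -2.46, -1.46 and 1.17 with median-of-ratios factors. With totals without ribosomal and mitochondrial genes they were -0.18, -1.18, -2.29 and 1.33 on days 0, 3, 4 and 7. The median of all genes was -0.09 to 0.02 under TMM factors, -0.07 to 0.01 under median-of-ratios factors and 0.13 to 0.28 under those totals. The day 7 to day 3 median was -6.22 with TMM factors in the control, and -3.77 (every barcode) and -3.74 (no upper limit) in the heme library.

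Leaving out each member in turn gave -0.11 to -0.07, -1.14 to -0.99, -2.50 to -1.99, -1.34 to -0.80 and 1.40 to 1.75 for days 0, 3, 4, 5 and 7, and for day 7 to day 3 -6.16 to -5.90 in the control and -3.25 to -2.86 in the heme library.

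Shares of cells depended on depth and cut-offs. Positive cells at 2000 and 6000 UMIs were 32.1% and 48.9% on control day 3, 23.4% and 38.9% on heme day 3 (33.6% without the upper limit), 0.504% on control day 7 at 6000, and 1.82% and 5.49% on heme day 7. Irf8 among positive cells on day 3 was 4.09% and 8.97% (control, 2000 and 6000 UMIs), 7.48% (heme, 6000), 7.80% (heme, no upper limit), and 1.01% and 0.693% counted from 2 UMIs. Camp was 29.8% and 45.2% in the control and 34.3% and 54.0% in the heme library at those depths, 31.1% and 36.2% in cells with 10 or more UMIs of the 5 genes, 47.3% with 3 or more (heme), 30.4% without the upper limit (heme), and 56.6% and 69.7% counted from 1 UMI.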

Other observations

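Barcodes with more than 1 hashtag, left out of all comparisons, held Mpo at 316 CPM, Elane at 955 CPM, Prtn3 at 978 CPM, Ctsg at 193 CPM and Ms4a3 at 311 CPM in the control library (1259 barcodes). Mpo, Elane, Prtn3 and Ctsg lay between their levels of control days 3 and 4, and Ms4a3 between those of days 4 and 5.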
